A study of Homo sapiens with 12 samples.

Results

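The collagen chain genes are the genes whose symbols read COL, a number, A and a number, each encoding 1 alpha chain of a collagen. Every probe set with a single gene symbol of that form was taken, which gave 106 probe sets of 54613 on the array and 43 genes of 19677. Each gene is described by its probe set with the highest mean signal over all arrays. Of the 43 genes, 11 had 1 probe set and 32 had several, up to 8. The choice used symbols and mean signal only, not the differences between treatments.

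Collagens are triple-helical matrix proteins built from 3 alpha chains. Fibrillar collagens (types I, II, III, V, XI, XXIV and XXVII) form the fibres of connective tissue, while type IV collagen forms the sheet-like network of basement membranes. A stratified epithelium such as the ectocervix stands on a basement membrane and is tied to it by transmembrane collagen XVII, which sits in the hemidesmosome, and by anchoring fibrils of collagen VII beneath it. Transforming growth factor beta is known as an inducer of collagen synthesis, chiefly in fibroblasts, and seminal plasma is rich in it.

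The cells were Ect1, a line of human ectocervical epithelium that carries papillomavirus oncogenes to keep it dividing, so a single line stands for the tissue. Confluent cells were kept for 10 h in keratinocyte serum-free medium alone (control), in the same medium holding 10% (v/v) seminal plasma pooled from donors, or in that medium with 5 ng/ml of TGFB3, 1 of the transforming growth factors beta. EGF, bovine pituitary extract and calcium were in the medium of all 3 groups. Each group had 4 Affymetrix U133 Plus 2.0 arrays, and each array read 1 biological replicate, itself a pool of 4 wells. Precision is limited by the 4 arrays per group, and the level of a gene in such a pool cannot tell fewer cells expressing it from less RNA per cell.

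In their shares of dim and of bright signal, 2 of the 12 arrays differed from the rest, replicates 3 and 4 of seminal plasma. Each gene's seminal plasma value is also given without them where it then moves by over 1.5 times. In them 8.01% and 12.8% of all probe sets lay under a signal of 16, against 16.3% to 20.2% on the others. The share of signal in the 100 brightest probe sets was 18.4% and 15.4% there, against 7.66% to 11.6% elsewhere. Some genes also split the arrays of the other groups into pairs. The crosslinking enzyme gene LOX had 1504 and 1185 in control replicates 1 and 2 and 246 and 356 in replicates 3 and 4. With TGFB3, the protease gene MMP13 had 47.1 and 45.8 in replicates 1 and 4 and 295 and 227 in replicates 2 and 3. Others, such as COL4A6, did not split so. The cause of these splits was not tested. The cells carried the markers of keratinocytes: 9 such genes, KRT5 and KRT14 among them, had summed signals of 189633 to 377550 per array. The 7 fibroblast markers, 4 of them with a mean under 100, summed to 927 to 1124 in the controls, 885 to 1044 with seminal plasma and 1208 to 1773 with TGFB3. Among the fibroblast markers FAP had a mean of 377 in the controls and 861 with TGFB3, at 1.18 ± 0.66 (limma adjusted p 0.782). Its TGFB3 arrays (691 to 1149) all lay above the controls (328 to 486). Without seminal plasma replicates 3 and 4 its limma adjusted p with TGFB3 was 0.0615. DCN had means of 232 in the controls and 228 with TGFB3, and THY1 of 315 and 253. The median log2 fold change of the 7 with TGFB3 was -0.06. No fibroblast or keratinocyte marker passed the test, and the part of the higher sums with TGFB3 in the collagen values was not tested. The 5 endothelial markers summed to 262 to 425 in the controls, 434 to 779 with seminal plasma and 369 to 590 with TGFB3, and none passed. The 5 leukocyte markers summed to 750 to 1075, 310 to 843 and 346 to 473 in the same order. CD14 was the brightest of them, with means of 688, 424 and 184. With TGFB3 it was at -1.90 ± 0.55 (limma adjusted p 0.327), and it passed without seminal plasma replicates 3 and 4 (0.00642). With seminal plasma it was at -1.05 ± 0.55, and at -0.22 without those 2 arrays. LYZ, the lysozyme gene, was lower with seminal plasma, at -1.52 ± 0.32 (limma adjusted p 0.0382). Its seminal plasma signals were only 5.56 to 21.6, and without those 2 arrays it missed the threshold (0.124). The part of these in the collagen values was not tested either. The 7 markers of semen cells and glands summed to 762 to 1006 in the controls, 996 to 1438 with seminal plasma and 668 to 1077 with TGFB3. None passed, and their median log2 fold change with seminal plasma was 0.51. PRM1, a sperm protamine, had means of 53.4 in the controls and 169 with seminal plasma, at 1.62 ± 0.61 (limma adjusted p 0.138). ACP3 was at -0.85 ± 0.51, and PRM2, another protamine, lay under 16 on every array. Carry-over of RNA from semen was not tested.

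Most collagen genes gave little signal in these cells. The 10 brightest had means over the 12 arrays from 1057 (COL16A1) to 3846 (COL4A5) linear units, and none had an array under 16. They were COL4A5, COL7A1, COL12A1, COL4A6, COL17A1, COL4A2, COL1A1, COL4A1, COL27A1 and COL16A1. The other 33 ran from 335 (COL11A2) down to 9.49 (COL24A1), 22 of them with a mean under 100, and 19 had at least 1 array under 16. Signals of different probe sets are not on a shared scale, so this order ranks brightness and not the amount of RNA of one gene against another.

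With TGFB3, COL4A1 was the 1 collagen gene of 43 that passed the test (limma, Benjamini-Hochberg adjusted p under 0.05 over all probe sets), and it rose. Over all genes 0.295% passed with TGFB3, and 0.254% as higher. COL12A1, COL4A2 and COL1A1 had unadjusted p-values under 0.05 as well and positive fold changes, and did not pass after adjustment. In all, 4 collagen genes of 43 (9.3%) had an unadjusted p under 0.05, against 9.79% of all genes. The 43 had a median log2 fold change of -0.07, and all genes one of -0.01.

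With seminal plasma no collagen gene passed in limma, where 3.25% of all genes did, and 9 of 43 (20.9%) had an unadjusted p under 0.05 against 26.8% of all genes. The collagen genes spread both ways, from -2.07 for COL2A1 to 1.45 for COL10A1 on the log2 scale (-1.25 and 0.74 without replicates 3 and 4). Their median was 0.15 and that of all genes 0.11. The median of all genes follows the scaling: it was 0.00 after quantile normalization and -0.27 after centring each array on its median. Without seminal plasma replicate 2, 7 collagen genes passed, 3 higher and 4 lower, where 17.4% of all genes passed. Without replicates 3 and 4 none passed, and 1.06% of all genes did.

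Between seminal plasma and TGFB3, none of the 43 passed in limma against 1.96% of all genes, and 12 (27.9%) had an unadjusted p under 0.05 against 24%. Without seminal plasma replicate 2 the count was 6, where 13.4% of all genes passed, and without seminal plasma replicate 1 it was 2, where 2.7% did. The 3 comparisons share arrays and 1 estimate of the spread, so a gene has the same standard error (SE) in each.

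Genes whose 2 groups of arrays did not overlap were also counted. With TGFB3, 6 collagen genes of 43 lay wholly above the controls, COL4A1, COL4A2, COL12A1, COL27A1, COL5A1 and COL5A2, against 4.55% of all genes. Only COL4A6 of the 43 (2.33%) lay wholly below, against 6.58%. With seminal plasma 3 lay above (6.98% against 8.37%), COL4A1, COL27A1 and COL4A3, and 4 below (9.3% against 7.57%), COL4A5, COL4A6, COL17A1 and COL2A1. Seminal plasma lay wholly above TGFB3 in 3 (6.98% against 6.58%), COL4A3, COL5A3 and COL6A5, and wholly below it in 6, against 4.78% of all genes: COL4A5, COL12A1, COL17A1, COL4A2, COL1A1 and COL5A2.

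Bright genes separate more often, so the 10 brightest were also set beside the 5643 genes with a mean signal of at least 1000, a comparison added after the values were seen. With TGFB3, 4 of the 10 lay wholly above the controls and 1 below, against 7.73% and 10.2% of those genes. With seminal plasma 2 lay above and 3 below, against 12.2% and 14.2%. Seminal plasma lay wholly above TGFB3 in 0 and wholly below in 5, against 9.68% and 9.02%.

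**Figure D1:**
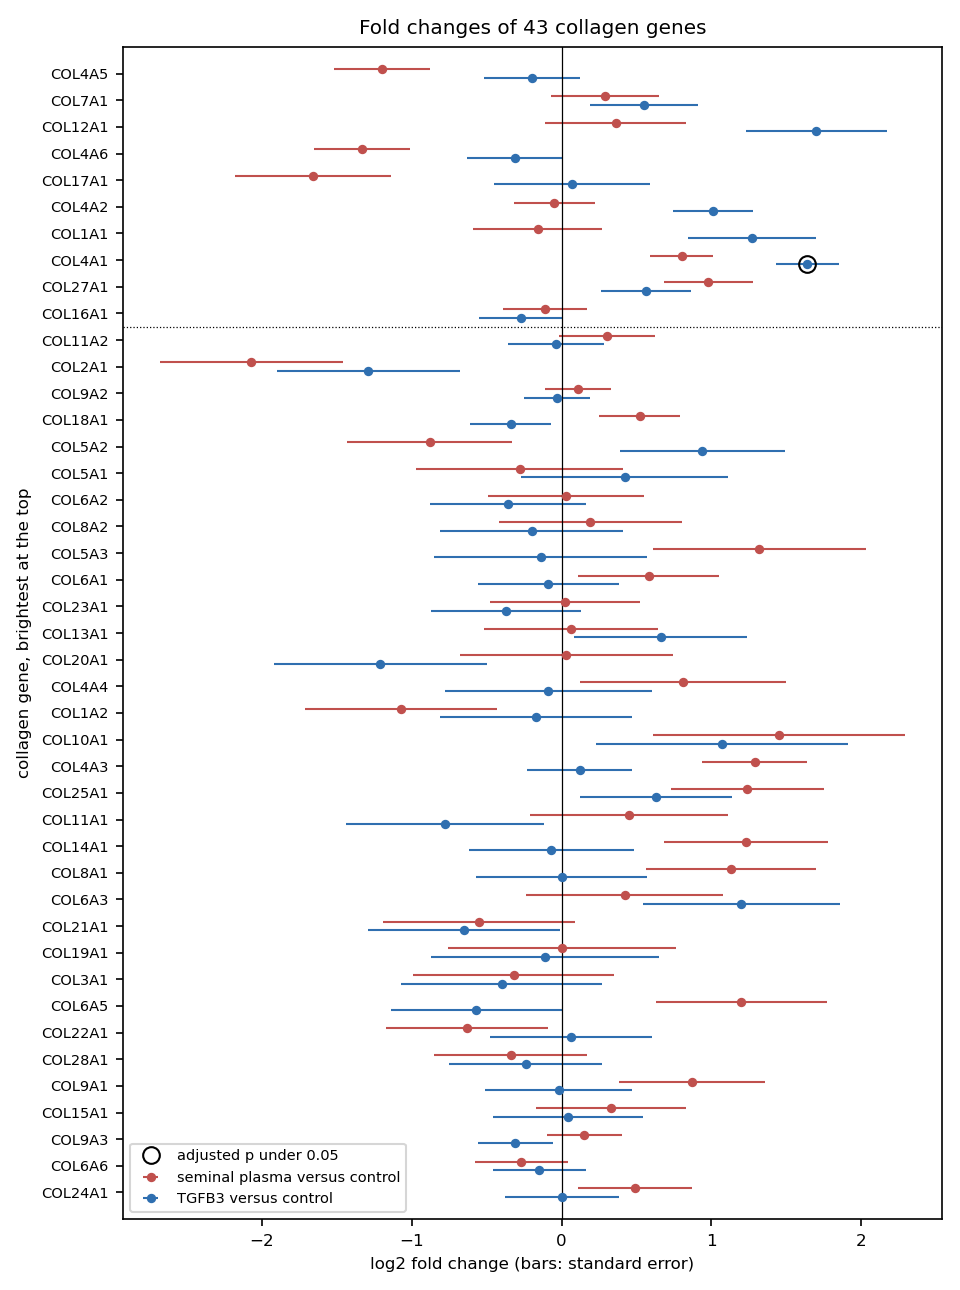
Log2 fold change of each of the 43 collagen genes against control on the horizontal axis, with seminal plasma in red and TGFB3 in blue; bars are standard errors from the spread shared by all 12 arrays. Genes run from the brightest at the top, the dotted line closes the 10 brightest, and the open circle marks COL4A1 with TGFB3 (1.64), the 1 value past an adjusted p of 0.05.

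Type IV collagen comes as 3 pairs of genes that start head to head on opposite strands: COL4A1 with COL4A2, COL4A3 with COL4A4, and COL4A5 with COL4A6. COL4A1 and COL4A2 encode the chains of the common basement membrane network, in which 2 of the 3 chains of a molecule are alpha 1 and 1 is alpha 2. Their starts in RefSeq (GRCh38.p14) are 126 bases apart on chromosome 13, at chr13:110307158-110307283. That stretch, the shared promoter of the gene that rose, reads on the plus strand as follows. Capitals mark CCAAT (or its complement ATTGG) and GGGCGG (or CCGCCC), the boxes read by NF-Y and by Sp1-type factors.
between COL4A1 and COL4A2: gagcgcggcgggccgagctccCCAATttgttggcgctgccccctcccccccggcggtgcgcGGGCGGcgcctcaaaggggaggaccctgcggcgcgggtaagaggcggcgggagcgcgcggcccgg
It is 80.2% G and C and holds 1 match of each box. The 250 bases before all RefSeq starts had a median of 58.0%, but those windows are longer and reach further from a start. The 126 bases hold no CAGAC, a letter string that SMAD proteins bind, and no TGANTCA, the letters of an AP-1 site. These are matches of letters only.

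COL4A1 had signals of 756, 656, 750 and 687 in control replicates 1 to 4. With TGFB3 they were 1562, 2407, 2616 and 2458, and with seminal plasma 1728, 1112, 1063 and 1161. All 8 treated arrays thus lay above all 4 controls, and TGFB3 replicate 1 was the lowest of its group. The log2 fold change with TGFB3 was 1.64 ± 0.21 (SE; a fold of 3.12), with a limma adjusted p of 0.014. Leaving out each array in turn, it passed in 7 of 12 fits. The limma adjusted p was 0.0567 and 0.0646 without control replicates 3 and 4, and 0.0645, 0.067 and 0.0536 without TGFB3 replicates 2, 3 and 4, while the log2 fold change stayed between 1.56 and 1.81. It also missed the threshold after median centring (adjusted p 0.144). With seminal plasma it was 0.80 ± 0.21 (limma adjusted p 0.0639) and 0.96 ± 0.24 without replicates 3 and 4.

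COL4A2 had control signals of 1324, 984, 1413 and 1301 in replicates 1 to 4. The TGFB3 arrays gave 2136, 2796, 2650 and 2495, and the seminal plasma arrays 1641, 1443, 1341 and 656. Every TGFB3 array lay above every control and every seminal plasma array, whereas seminal plasma and control overlapped. On the log2 scale the difference from control was 1.01 ± 0.27 with TGFB3 (limma adjusted p 0.259) and -0.05 ± 0.27 with seminal plasma (0.931). Without seminal plasma replicates 3 and 4 the latter was 0.31 ± 0.17 (0.454). In that fit the SE of the TGFB3 value was 0.14, and it passed (limma adjusted p 0.0292).

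The ratio of the partners was compared array by array. The log2 ratio of COL4A1 to COL4A2 signal had a mean of -0.81 ± 0.16 (SD, n = 4) in the controls, -0.18 ± 0.21 with TGFB3 and 0.05 ± 0.56 with seminal plasma. From these probe sets the ratio was higher than in the controls by 0.63 with TGFB3 and by 0.85 with seminal plasma. Each difference had a two-sided exact permutation p of 0.0286, the smallest that 4 against 4 arrays allow, and 0.129 after Benjamini-Hochberg adjustment over 9 such tests. TGFB3 and seminal plasma differed by 0.22 (exact p 0.6). The second brightest probe set of each gene, compared after the values were seen, gave -0.88 ± 0.12 (SD, n = 4) in the controls, 0.08 ± 0.11 with TGFB3 and -1.01 ± 1.16 with seminal plasma. The higher ratio thus held in both pairs of probe sets with TGFB3, and not with seminal plasma, where replicates 1 and 2 gave -0.12 and -0.26 and replicates 3 and 4 -2.65 and -1. A probe set's response to RNA amount can differ from another's, so the ratio of signals is no ratio of transcripts.

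COL4A5 and COL4A6 encode chains that join in the basement membranes of squamous epithelium and smooth muscle, and lie head to head on chromosome X, with 379 bases between starts in RefSeq (which lists a further COL4A6 start). The 250 bases before each are shown because both genes lay lower on all 4 seminal plasma arrays; on opposite strands, they overlap in the middle of the gap. Capitals mark CCAAT or ATTGG and CAGAC or its complement GTCTG. Upstream of COL4A5 is chrX:108439588-108439837, plus strand, and upstream of COL4A6 is chrX:108439459-108439708, minus strand.
upstream of COL4A5: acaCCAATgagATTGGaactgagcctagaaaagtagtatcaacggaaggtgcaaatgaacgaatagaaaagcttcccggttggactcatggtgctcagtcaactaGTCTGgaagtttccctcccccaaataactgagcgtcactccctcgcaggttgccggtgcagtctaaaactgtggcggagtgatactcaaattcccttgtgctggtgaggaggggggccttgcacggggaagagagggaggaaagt
upstream of COL4A6: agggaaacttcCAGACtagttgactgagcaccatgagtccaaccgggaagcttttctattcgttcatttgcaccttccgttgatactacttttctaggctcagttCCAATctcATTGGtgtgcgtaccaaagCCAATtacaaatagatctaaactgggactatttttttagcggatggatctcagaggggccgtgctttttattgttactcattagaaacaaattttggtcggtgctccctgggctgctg
They are 51.2% and 44.0% G and C, below the 80.2% of the shorter stretch between COL4A1 and COL4A2, and neither holds a GGGCGG.

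COL4A5 had the brightest collagen probe set, with control signals of 4396, 5764, 4848 and 4667 in replicates 1 to 4. With seminal plasma they were 2916, 3835, 1414 and 1284, all below the controls, and with TGFB3 4671, 4004, 3997 and 4359. COL4A6 followed the same order, with 2721, 3103, 2852 and 2962 in the controls and 1482, 2209, 677 and 799 with seminal plasma. For both, seminal plasma replicates 3 and 4 were the lowest arrays of the 12. The log2 fold change with seminal plasma was -1.20 ± 0.32 for COL4A5 (limma adjusted p 0.0653) and -1.33 ± 0.32 for COL4A6 (0.0524). Without replicates 3 and 4 these were -0.55 ± 0.15 and -0.68 ± 0.16, smaller by over 1.5 times, with every remaining seminal plasma array still below the controls. Without seminal plasma replicate 2 both passed (limma adjusted p 0.00912 and 0.005). A dim second COL4A5 probe set, of mean 83.5, overlapped the controls with seminal plasma, at 0.43 ± 0.28. Of the dimmer COL4A6 probe sets, that of mean 508 lay below all controls, at -2.44 ± 0.71. That of mean 424 overlapped them, at -0.42 ± 0.31.

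With TGFB3, COL4A6 had signals of 2337, 2329, 2170 and 2592, all below the controls but by little, at -0.31 ± 0.32 on the log2 scale (limma adjusted p 0.969). COL4A5 was at -0.20 ± 0.32. The log2 ratio of COL4A5 to COL4A6 signal was 0.75 ± 0.10 (SD, n = 4) in the controls, 0.85 ± 0.11 with TGFB3 and 0.88 ± 0.17 with seminal plasma. No pair of groups differed in it past the threshold: the two-sided exact permutation p was 0.257 for TGFB3 and 0.229 for seminal plasma against control. The differences from control were 0.10 and 0.13, beside values of -0.20 and -0.31 (TGFB3) and -1.20 and -1.33 (seminal plasma) for the single genes.

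COL4A3 and COL4A4, whose chains join alpha 5 in the basement membranes of the kidney, were dim. COL4A3 had signals of 32.1, 47.1, 27.4 and 49.5 in the controls and 72.2, 62.0, 151 and 107 with seminal plasma, which lay above every control. Its log2 fold change was 1.29 ± 0.35 (limma adjusted p 0.0674), and 0.82 ± 0.36 without replicates 3 and 4. With TGFB3 it was 0.12 ± 0.35. These values come from the brightest of 7 COL4A3 probe sets. The next, of mean 54.4, also lay above every control with seminal plasma, at 1.64 ± 0.45 (limma adjusted p 0.068). The rest, all dimmer, overlapped the controls, the lowest of them at -0.36 ± 0.41. COL4A4 ranged from 9.22 to 201 over the 12 arrays, and its groups overlapped.

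**Figure D2:**
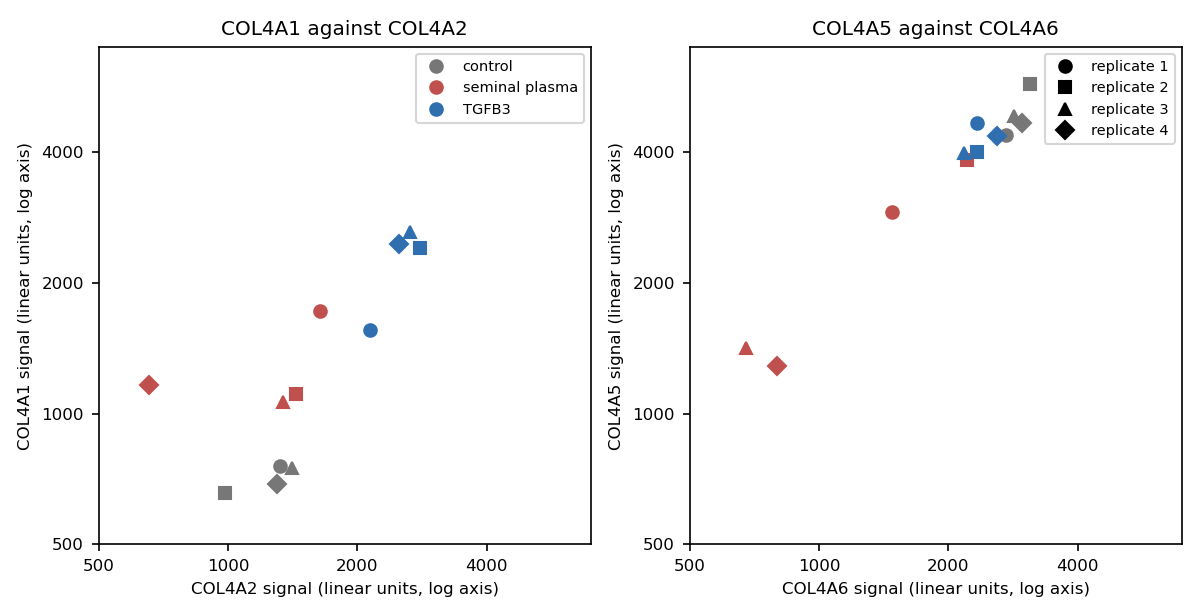
Signal of COL4A1 against COL4A2 (left) and of COL4A5 against COL4A6 (right) on each of the 12 arrays, both axes in linear units on log axes; colours are groups and shapes replicates. On the left all treated arrays lie above the controls in COL4A1 while seminal plasma overlaps them in COL4A2; on the right the arrays lie along 1 line, with seminal plasma replicates 3 and 4 lowest.

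COL17A1 encodes the transmembrane collagen of hemidesmosomes. Control replicates 1 to 4 gave 3292, 2445, 2327 and 2240, TGFB3 2183, 3103, 2650 and 2847, and seminal plasma 1537, 1997, 328 and 416. The seminal plasma arrays lay below all the others, replicates 3 and 4 far below. Its change was a log2 of -1.66 ± 0.52 with seminal plasma (limma adjusted p 0.0908), and -0.54 ± 0.21 without those 2 arrays (0.282). It passed without seminal plasma replicate 2, at -2.10 (0.0168). With TGFB3 it was 0.07 ± 0.52 and the arrays overlapped.

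COL7A1, the chain of anchoring fibrils, did not separate the groups. It had 3566, 4523, 1839 and 1999 in the controls, 2352, 4529, 5023 and 2464 with seminal plasma, and 5760, 3537, 3327 and 4012 with TGFB3. Control replicates 3 and 4 were the lowest arrays. The log2 fold change with TGFB3 was 0.55 ± 0.36 (limma adjusted p 0.864), with a 95% interval from -0.25 to 1.35, and with seminal plasma 0.29 ± 0.36 (0.644).

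**Figure D3:**
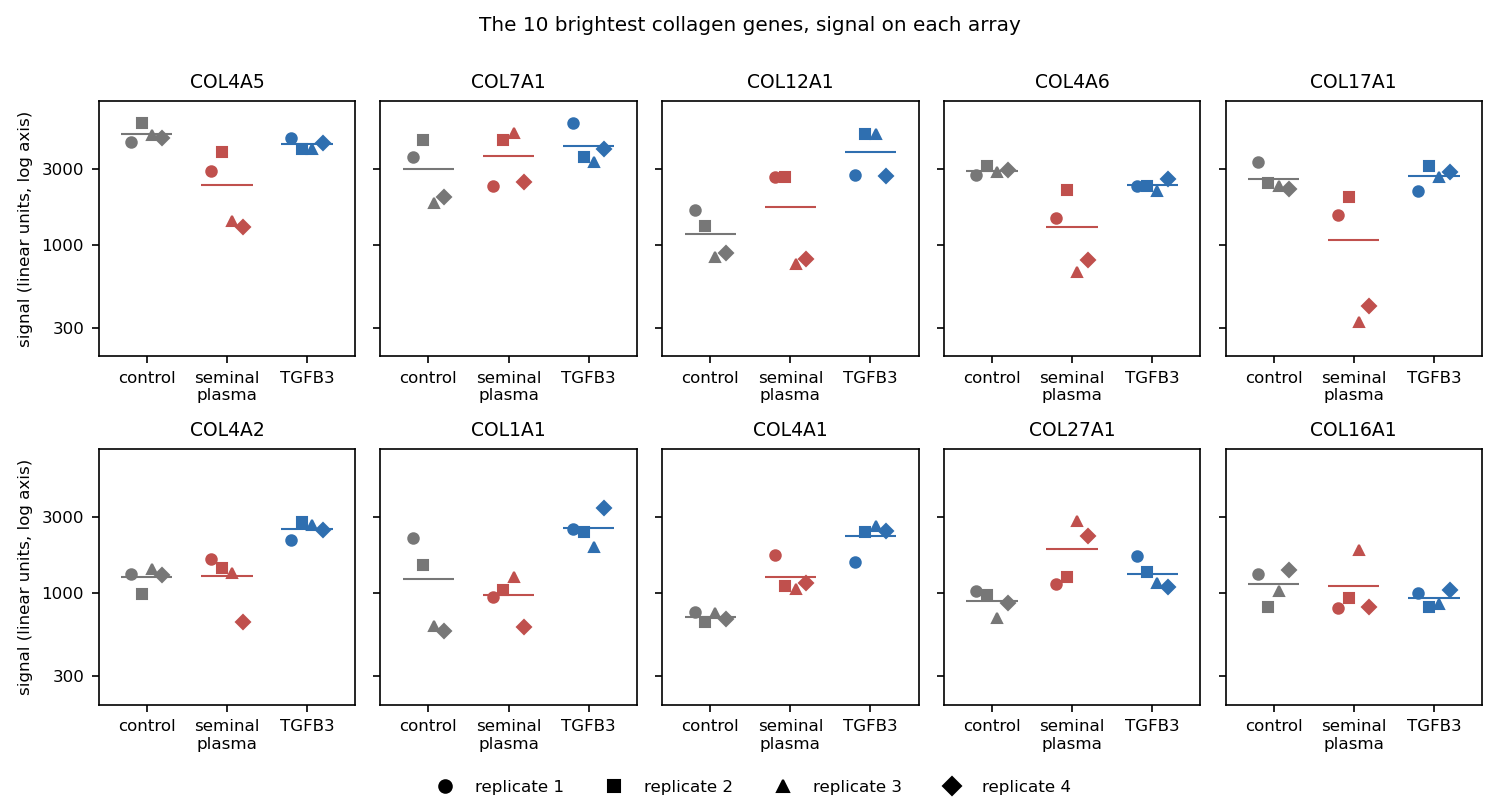
Signal in linear units, on a log axis, of the 10 collagen genes with the highest mean, for each array by group; shapes are replicates and lines group means. COL4A1 lies higher on all 8 treated arrays than on the controls, and COL4A5, COL4A6 and COL17A1 lie lower on all 4 seminal plasma arrays, most of all on replicates 3 and 4.

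Among 11 fibrillar chains, none passed in any of the 3 comparisons. COL1A1, 1 of the chains of type I collagen, had 2214, 1493, 621 and 576 in control replicates 1 to 4. With TGFB3 it had 2530, 2398, 1933 and 3388, and with seminal plasma 947, 1038, 1261 and 613. Control replicates 3 and 4 fell well below replicates 1 and 2, and TGFB3 replicate 3 lay under control replicate 1, so those groups overlapped. The log2 fold change with TGFB3 was 1.27 ± 0.43 (limma adjusted p 0.434), and seminal plasma lay wholly below TGFB3, at -1.43 ± 0.43 (0.102). A dimmer COL1A1 probe set, of mean 515, had 571, 382, 264 and 358 in the controls and 644, 818, 609 and 1439 with TGFB3. There the TGFB3 arrays lay wholly above the controls, at 1.12 ± 0.32 (limma adjusted p 0.308). On another, of mean 636, they overlapped, at 0.58 ± 0.37. COL1A2, its partner in type I collagen, ranged only from 22.0 to 137 and was at -0.17 ± 0.64 with TGFB3.

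Type V collagen joins type I in fibres and sets their width. COL5A2 had 137, 105, 142 and 114 in the controls and 203, 279, 218 and 254 with TGFB3, but 88.2, 184, 17.7 and 70.4 with seminal plasma. COL5A1 had 104, 119, 118 and 103 in the controls, 121, 135, 164 and 180 with TGFB3, and 14.1, 110, 302 and 129 with seminal plasma. On these probe sets the TGFB3 arrays of both genes lay above the controls, in COL5A1 narrowly (121 against 119). The seminal plasma arrays scattered around the controls. The log2 fold changes with TGFB3 were 0.94 ± 0.55 for COL5A2 and 0.42 ± 0.69 for COL5A1 (limma adjusted p 0.809 and 1). On the dimmer probe sets of both genes TGFB3 and control overlapped. That of COL5A2, of mean 69.3, was at 0.43 ± 0.36 with TGFB3. With seminal plasma it lay wholly below the controls, at -1.83 ± 0.36 (limma adjusted p 0.0293). The third chain, COL5A3, lay higher on all 4 seminal plasma arrays (134 to 340) than on the TGFB3 arrays (27.3 to 110), at 1.45 ± 0.71 (0.256).

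COL27A1, a fibrillar chain best known from cartilage, had control signals of 1030, 973, 694 and 869. All treated arrays exceeded them, with 1140, 1267, 2811 and 2276 for seminal plasma and 1704, 1346, 1155 and 1090 for TGFB3. Its difference on the log2 scale was 0.98 ± 0.30 with seminal plasma (limma adjusted p 0.0869), 0.45 ± 0.22 without replicates 3 and 4, and 0.56 ± 0.30 with TGFB3 (0.759). The next COL27A1 probe set, of mean 966, went the other way with seminal plasma, at -0.75 ± 0.51 (limma adjusted p 0.383). It gave 823, 1063, 645 and 621 in the controls and 602, 1286, 332 and 171 with seminal plasma. Another, of mean 584, was at 0.84 ± 0.30 with seminal plasma (limma adjusted p 0.121). COL2A1, the main collagen of cartilage, had 388, 459, 327 and 344 in the controls and 104, 241, 47.7 and 53.8 with seminal plasma. TGFB3 split into 354 and 265 in replicates 1 and 4 and 73.7 and 81.8 in replicates 2 and 3. COL2A1 was at -2.07 ± 0.61 with seminal plasma (0.0793), -1.25 ± 0.68 without replicates 3 and 4, and -1.29 ± 0.61 with TGFB3 (0.69).

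Of 10 chains of fibril-associated collagens, which sit on the surface of fibres, 2 were bright. COL12A1, known to respond to mechanical load, had 1658, 1308, 834 and 894 in the controls and 2723, 4945, 4924 and 2692 with TGFB3. With seminal plasma it had 2666 and 2659 in replicates 1 and 2 but 758 and 814 in replicates 3 and 4. Every TGFB3 array exceeded every control and, narrowly (2692 against 2666), every seminal plasma array. Seminal plasma fell into an upper and a lower pair on either side of the control range. The log2 fold change was 1.70 ± 0.47 with TGFB3, the largest of the 43 (limma adjusted p 0.289), and 0.36 ± 0.47 with seminal plasma (0.659), or 1.24 ± 0.37 without replicates 3 and 4 (0.177). Without seminal plasma replicates 3 and 4 the TGFB3 value had an SE of 0.30 (0.0635), and seminal plasma minus TGFB3 moved from -1.34 to -0.46. The 250 bases before its RefSeq start, on the minus strand of chr6:75206054-75206303, are shown because this promoter belongs to the member with that value. Capitals mark its 1 match of GGGCGG, read here as CCGCCC.
upstream of COL12A1: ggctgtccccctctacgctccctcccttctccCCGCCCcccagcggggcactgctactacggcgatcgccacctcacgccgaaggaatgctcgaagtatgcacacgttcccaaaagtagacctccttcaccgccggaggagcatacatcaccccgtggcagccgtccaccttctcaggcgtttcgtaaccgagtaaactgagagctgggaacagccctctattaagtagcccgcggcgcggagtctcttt

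COL16A1 had 1322, 811, 1035 and 1391 in the controls, 804, 930, 1854 and 815 with seminal plasma and 998, 811, 857 and 1051 with TGFB3. Its groups overlapped, with log2 fold changes of -0.11 ± 0.28 with seminal plasma (-0.37 without replicates 3 and 4) and -0.27 ± 0.28 with TGFB3. The other 8 fibril-associated chains had means of 208 (COL9A2) or less, and none of them had treated arrays apart from the controls.

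The remaining classes were dim. The 6 beaded-filament chains (COL6A1, COL6A2, COL6A3, COL6A5, COL6A6 and COL28A1) had means of 132 or less. COL6A5 lay higher on the seminal plasma arrays (18.9 to 134) than on the TGFB3 arrays (2.93 to 6), where each value was under the floor of 16, at 1.77 ± 0.57 on floored values (limma adjusted p 0.116). Without seminal plasma replicates 3 and 4, its 2 highest arrays, this was 0.66 ± 0.40 (0.528). The hexagonal-network chains COL8A1, COL8A2 and COL10A1, the multiplexins COL15A1 and COL18A1, and the transmembrane COL13A1, COL23A1 and COL25A1 had no separated groups. The 33 dimmer genes had a median log2 deviation from control of 0.79 in seminal plasma replicate 3 and 0.52 in replicate 4, and of 0.00 in each of the other 2 replicates. Over all genes, bright ones included, the median was 0.25 in replicate 3 and 0.03 in replicate 4. In 25 of the 33 the highest seminal plasma array was replicate 3 or 4, a count not made over all genes. These 2 arrays had fewer probe sets under 16. The part of that array difference in these values was not tested.

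Where a gene had several probe sets, these were compared. Of the 10 brightest genes, 7 had more than 1 probe set with a mean of at least 100, 19 probe sets in all. With TGFB3 the fold changes of a gene's probe sets had 1 sign in 6 of the 7 genes, the exception being COL4A6. With seminal plasma they did so in 2 of 7, COL4A2 and COL4A6, and were mixed in COL12A1, COL1A1, COL27A1, COL4A1 and COL7A1. COL12A1 had 1.70, 1.72, 1.92 and 0.93 with TGFB3 from its 4 probe sets. Its seminal plasma and TGFB3 arrays overlapped in the probe sets of mean 1574 and 243, and not in those of mean 2239 and 699.

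The dimmer COL4A1 probe set gave 234, 180, 249 and 205 in the controls and 431, 960, 880 and 849 with TGFB3, at 1.79 ± 0.84 (limma adjusted p 0.69). With seminal plasma it gave 341 and 369 in replicates 1 and 2, but 38.2 and 20.0 in replicates 3 and 4. On those 2 arrays it lay below the controls, while the brighter one lay above them. In COL4A2 both probe sets lay below the controls in seminal plasma replicate 4, where the dimmer gave 40.0 against 353 to 428 in the controls, and the brighter 656 against 984 to 1413. Averaging the probe sets of a gene turned the seminal plasma value of COL4A1 from 0.80 to -0.16 and left the TGFB3 value at 1.72, no longer past the threshold (limma adjusted p 0.189).

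Of the 106 collagen probe sets, 1 passed with TGFB3, the brighter of COL4A1, where 0.19% of all probe sets did. With seminal plasma 3 passed against 2.94%, all dim and none the brightest of its gene: 1 of COL12A1 and 1 of COL25A1 were higher (2.79 and 1.87), and 1 of COL5A2 was lower, at -1.83. Their limma adjusted p-values were 0.0147, 0.0291 and 0.0293. Between seminal plasma and TGFB3, 2 passed against 1.73%, 1 of COL1A1 at -1.61 (limma adjusted p 0.0385) and the same one of COL5A2 at -2.26 (0.0233). The COL1A1 one, the probe set of mean 515, gave 210, 362, 261 and 267 with seminal plasma and 644, 818, 609 and 1439 with TGFB3, with no overlap.

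**Figure D4:**
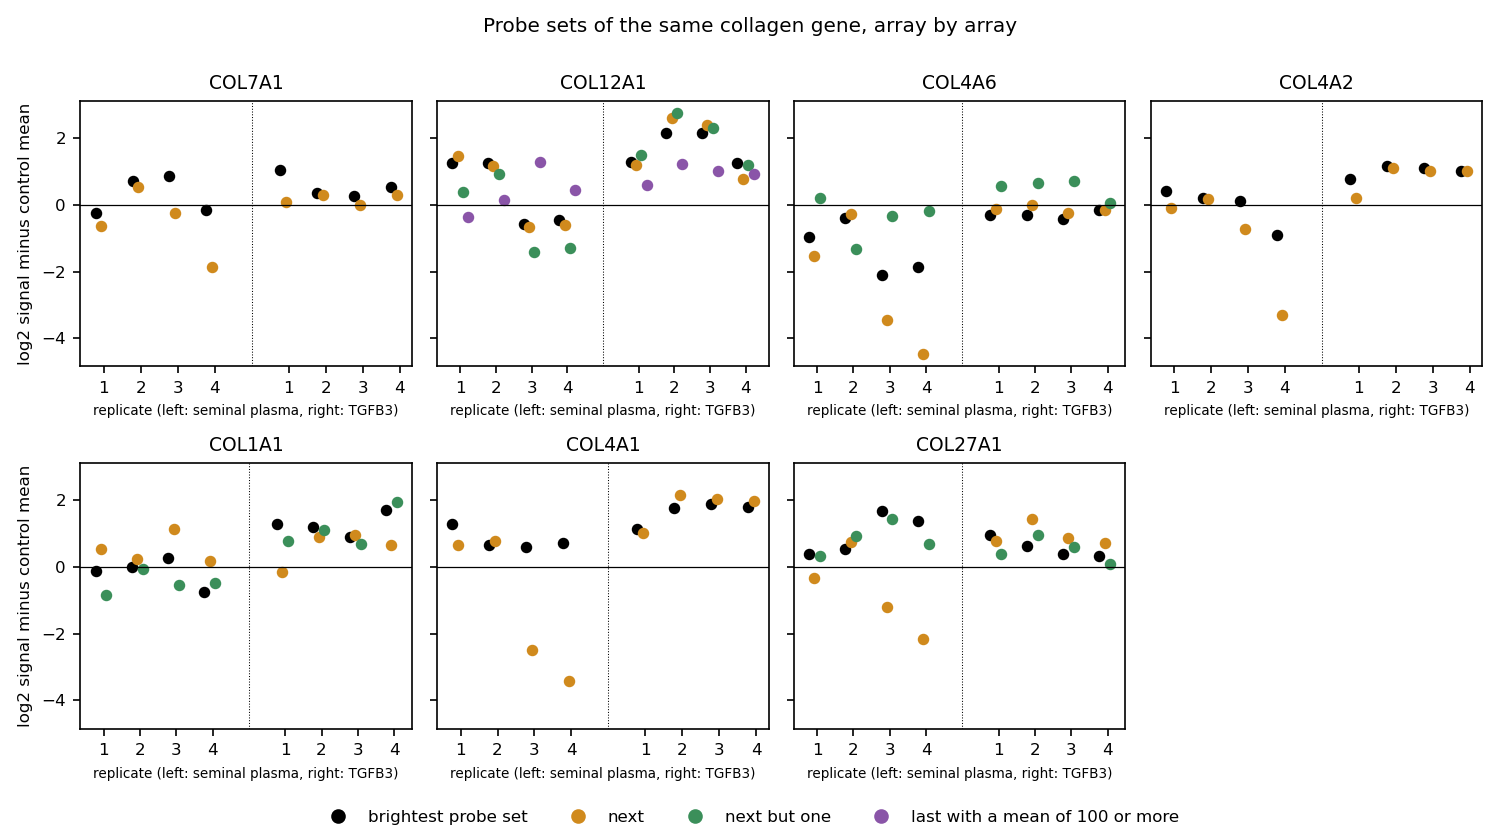
Log2 signal of each probe set minus its own control mean, for the 7 bright collagen genes with several probe sets of mean 100 or more; the left part of each panel holds seminal plasma replicates 1 to 4, the right part TGFB3 replicates 1 to 4. The probe sets of COL4A1 lie together in TGFB3 and in seminal plasma replicates 1 and 2 (0.66 and 0.78 for the dimmer one) and part in replicates 3 and 4 (-2.49 and -3.43).

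In the authors' deposited table, which gives a fold and a p-value per treatment, 5 of the 43 genes had a p-value for TGFB3 that passed after adjustment over all probe sets, where 11.8% of all genes did. The authors' deposited table lists COL12A1 at 3.26, COL4A1 at 3.17, COL4A2 at 2.01 and COL5A2 at 1.92 times the control, and COL4A6 at -1.23, its sign for a fall. For seminal plasma 6 passed against 15.8% in the authors' deposited table, COL4A1 (1.78) and COL4A3 (2.52) higher and COL2A1 (-3.41), COL17A1 (-2.41), COL4A6 (-2.25) and COL4A5 (-2.08) lower. The sources used here do not give how those p-values were computed.

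RefSeq promoter windows were found for 31 of the 43 genes, 43 windows in all. In the 250 bases before the start, on either strand, GGGCGG was present in 24 of 43 collagen windows (55.8%) and 42.6% of 35116 windows of all genes. CCAAT was in 12 (27.9% against 32%), CAGAC in 15 (34.9% against 38%) and TGANTCA, where N is any base, in 1 (2.33% against 6.57%). Windows of 1 gene or of a head-to-head pair overlap and are not independent.

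Genes that make, bind and cut collagen were counted beside the chains. Of 28 measured genes for collagen synthesis and processing, 1 fell with seminal plasma and none passed with TGFB3, where 1.38% of all genes fell and 0.295% passed; the medians were -0.17 and 0.00. The 1 was CRTAP, part of the complex that hydroxylates prolines of the collagen chain, at -0.74 ± 0.17 (limma adjusted p 0.0491; means of 5879 and 3538); without seminal plasma replicates 3 and 4 it was at -0.62 (0.157). Nearest to passing with TGFB3 were TLL2, a tolloid-like protease, at -1.61 ± 0.32 (limma adjusted p 0.0989), and the proline hydroxylase P3H2, at 1.66 ± 0.40 (0.204). Between the treatments LOX, the enzyme that crosslinks collagen, was lower with seminal plasma, at -4.40 ± 0.76 (limma adjusted p 0.0287), and at -3.71 (0.143) without those 2 arrays. LOX had 155, 606, 99.4 and 139 with seminal plasma, 2559, 6807, 7729 and 1890 with TGFB3, and 1504, 1185, 246 and 356 in the controls.

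Of 9 collagen receptors 1 rose with seminal plasma, where 1.87% of all genes did: ITGA2, the alpha chain of a collagen-binding integrin, had 2127, 1894, 2435 and 2287 in the controls and 14317, 8347, 5593 and 12282 with seminal plasma. Its TGFB3 arrays gave 5526, 7147, 7582 and 6507, also above all controls, at 1.61 ± 0.27 (limma adjusted p 0.0544). With seminal plasma it was at 2.13 ± 0.27 (0.00661). Of 9 collagen-cutting proteases, 2 rose with seminal plasma against the same 1.87%, MMP1 (5.82 ± 0.56; 0.00127) and MMP9 (2.96 ± 0.57; 0.0286), and none passed with TGFB3, where MMP13 (2.78 ± 0.60; 0.143) and MMP9 (1.83 ± 0.57; 0.377) had the smallest p-values. Without seminal plasma replicates 3 and 4, MMP9 was at 2.63 and missed the threshold (0.146), and MMP1 was at 5.00 (0.0134). MMP1, the interstitial collagenase, was at 5802 to 29408 with seminal plasma and at 174 to 655 on all other arrays.

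Partners of the basement membrane and hemidesmosome, 18 in all, were read in the same way. The laminin chain LAMB3 was higher with both treatments, at 1.55 ± 0.26 with seminal plasma (limma adjusted p 0.0194) and 1.63 ± 0.26 with TGFB3 (0.043). DST, whose epithelial form BP230 links keratin to the hemidesmosome beside collagen XVII, fell with seminal plasma, from a mean of 10768 to 3918 (-1.57 ± 0.30; 0.0284).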

How the data were processed

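RNA from 12 Ect1 cultures was read on Affymetrix arrays. The deposited table gives linear intensities per probe set and array. The submitters' processing notes name Partek, MAS5, RMA, GCOS 1.4 and R 2.6.1 without saying what each did; the 2% trimmed mean of 493.3 to 498.4 on every array shows global scaling. The authors also deposited a signed fold, read here as a score, and a p-value per treatment. Per the labels, labelling followed a whole-transcript method, while the series' design text names single-cycle labelling.

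Here, values under 16 were set to 16, log2 was taken, and limma 3.58.1 (R 4.3.3, lmFit and eBayes) was fitted to all 12 arrays, 4 per group, with Benjamini-Hochberg adjustment over all 54613 probe sets. The fit was tested on simulated data. Fold changes near the floor are understated. Replicates are separate cultures per the labels. Python 3.11.15 with scipy 1.17.1 and pandas 2.3.3 made the tables. Symbols were updated through RefSeq (1 of the 43). No column was left unused.

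All 43 collagen genes are counted. Array values are given for those past the threshold, the 10 brightest and those whose treated and control arrays do not overlap. From other lists, up to 4 members past it, or the 2 with the smallest p, are named; COL1A2, COL4A4, COL5A3 and COL6A5 were added after their values were seen. Members, lists and tests were chosen with earlier results of these data known. One result among the basement membrane partners is not reported here.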

Additional observations from a re-analysis of the deposited data

Results flagged for a closer look

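Over the 10 brightest collagen genes and the others given array by array, 42 groups of 4 arrays were tested for a single array far from its group, of which chance would flag about 1 in 20. A gap was found in 1: the signal of COL4A1 on TGFB3 replicate 1 was 1562, against 2407 to 2616 on the other 3 TGFB3 arrays, and its gap to the nearest of them was 0.838 of the group's range, above Dixon's 95% critical value for 4 samples. That ratio is on log2 values; on the linear signals it was 0.801, below the critical value. Its value still lay above every control. Without that array the log2 fold change of COL4A1 was 1.81 (limma adjusted p 0.00871). The same array was the lowest of its group for COL4A2 (2136) and for the second COL4A1 probe set (431), but not for COL7A1 (5760) or COL27A1 (1704), where it was the highest. The cause was not tested.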

How the results depend on the processing

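The count of collagen genes past the threshold with seminal plasma, 0, became 2 with a floor of 32, 1 with log2(value + 16), 1 with quantile normalization, 6 of 21 without dim probe sets, 6 with limma's trend and robust options, 3 with the mean of a gene's probe sets and 6 with the deposited p-values. Leaving out 1 array gave 0 to 7. With TGFB3 the count of 1 became 0 with median centring, 2 with only the groups compared, 2 without seminal plasma replicates 3 and 4 (COL4A2 added) and 5 with the deposited p-values, and 0 to 1 with 1 array left out. The mean of probe sets also gave 1, but that gene was COL12A1. Between the treatments the count of 0 became 4 without dim probe sets, 4 with trend and robust, 2 with the mean of probe sets, and 0 to 6 with 1 array left out. Over all genes, the 640 called with seminal plasma became 3430 without seminal plasma replicate 2, 3105 with the deposited p-values, 1638 without dim probe sets, 1553 with trend and robust, 272 after median centring and 84 with only the groups compared; the 58 with TGFB3 ranged over these settings from 8 with the replicate block to 2317 with the deposited p-values, and up to 151 in the fits made here.

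Averaging probe sets reversed the value of COL4A1 with seminal plasma to -0.16 and of COL4A6 with TGFB3 to 0.02. Over 21 gene values and these settings, 415 kept direction and call, 49 gained a call and 8 lost one. The causes were not tested beyond what fewer arrays or fewer tested genes entail.

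Same-numbered arrays of different groups had correlations of -0.09 to 0.15, taken on log2 values minus the group mean. The closest array had the same number for control replicates 2, 3 and 4 against seminal plasma. It did so for control replicates 1 and 4 against TGFB3, and for no replicate between the treatments. With 4 arrays per group this cannot decide whether the arrays were paired. With the replicate number as a block, 0, 0 and 0 collagen genes passed in the 3 comparisons, and COL4A1 with TGFB3 missed the threshold (limma adjusted p 0.142). Dim genes near the floor of 16 are measured with little precision.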
